A study of Mus musculus with 86 samples.

Results

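The comparison described here is the difference between 2 mouse lines in how the heart transcriptome changed under isoproterenol: the treated minus untreated change in B6129SF2/J mice minus that in FVB mice. Its members were the arrays titled with these lines, and 43 of the 86 arrays of the series entered it, in 4 of the 8 groups. There were 10 arrays from untreated FVB hearts and 11 from FVB hearts after a 14-day infusion of 120 µg of isoproterenol per g of body weight per day. There were 10 arrays from untreated B6129SF2/J hearts and 12 from B6129SF2/J hearts after the same infusion. Both lines are wild type by the study's design text, and mice were assigned to infusion or no treatment at random, per the labels. The untreated mice received no sham infusion that the labels name. FVB is an inbred strain, and B6129SF2/J is an F2 hybrid with C57BL/6 in its parentage, so that its mice differ from each other genetically. In the design text, FVB mice belonged to the cohort in which genes related to systolic dysfunction of the left ventricle were found, and B6129SF2/J mice to the separate cohort in which that set was applied. Age, the part of the heart and the time of day were not stated for these mice, and the labels do not say which mouse gave which array. The number of mice in the labels' protocol, which does not mention B6129SF2/J, is below the number of FVB arrays. If arrays shared a mouse, the p-values below measure in part a technical spread.

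Isoproterenol is a synthetic catecholamine that activates beta-adrenergic receptors. In cardiac muscle cells these receptors raise cyclic AMP and activate protein kinase A, which strengthens and speeds contraction and, through CREB-family factors, switches on transcription. Sustained infusion in mice is a standard way to produce hypertrophy, loss of muscle cells and fibrosis, and the severity depends on the strain.

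Each value was a GCRMA intensity on a scale where the median probe set of an array is 1. Values are given here as log2, so that 0 is the array median and a step of 1 is a doubling. Of the 18193 genes with a named probe set, 11641 had a group mean above the array median in at least 1 of the 4 groups and were tested. The defining markers of cardiac muscle were high in all 4 groups, with a summed log2 level of 13.65 to 15.2 over 12 genes. The twelfth treated FVB array, titled as replicate 2, was left out because its strain markers look like C57BL/6. That array also had an untreated-like level of Postn (5.48, against 7.93 to 8.78 on the other treated FVB arrays) and of Timp4 (4.46, against -0.94 to 2.65). On 3 of the 43 arrays the 3′ Gapdh control exceeded the 5′ control by over 2 log2 units, a sign of degraded RNA: untreated FVB replicate 10 (2.06), untreated B6129SF2/J replicate 8 (4.35) and treated B6129SF2/J replicate 7 (2.25). The spread between arrays was wider in FVB, with a median SD over genes of 0.54 untreated and 0.50 treated, against 0.36 and 0.32 in B6129SF2/J.

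Genes called in both lines moved in the same direction. The response differed past the threshold in a small set of genes, most of them called in 1 line only. Among them were Rad51b, which rose in FVB, and Sprr1a, Mt2 and 2900052N01Rik, which rose most in B6129SF2/J. Isoproterenol changed 847 genes in FVB hearts (515 higher, 332 lower) and 1464 in B6129SF2/J hearts (682 higher, 782 lower) at an adjusted p under 0.05. These were 4.42% and 2.85% of the genes tested in FVB, and 5.86% and 6.72% in B6129SF2/J. At an unadjusted p under 0.05, 12.4% were higher and 9.06% lower in FVB. Without untreated FVB replicate 1 the FVB calls were 365 higher and 479 lower, without untreated FVB replicate 2 they were 364 and 378, and without treated FVB replicate 12 they were 430 and 464. With quantile normalization the directions divided as 859 higher and 1002 lower in FVB, and 1120 higher and 1200 lower in B6129SF2/J. The 2 lines share no arrays, and 387 genes were called in both, all in the same direction. These were 45.7% of the FVB calls and 26.4% of the B6129SF2/J calls. Across the 11641 genes, which are not independent replicates, the effects of the 2 lines had a Pearson r of 0.56 and a Spearman rho of 0.54. The difference between the lines passed the threshold in 12 genes, 0.103% of those tested: 6 with a higher and 6 with a lower response in B6129SF2/J (0.0515% each). Of the 12, 3 had a called FVB effect and 10 a called B6129SF2/J effect, with 1 called in both lines. At an unadjusted p under 0.05 there were 1023 genes (8.79%), 409 higher (3.51%) and 614 lower (5.27%). The median difference over all genes was -0.05 and its median SE 0.28, and the smallest called difference was 1.32 in size.

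**Figure D1:**
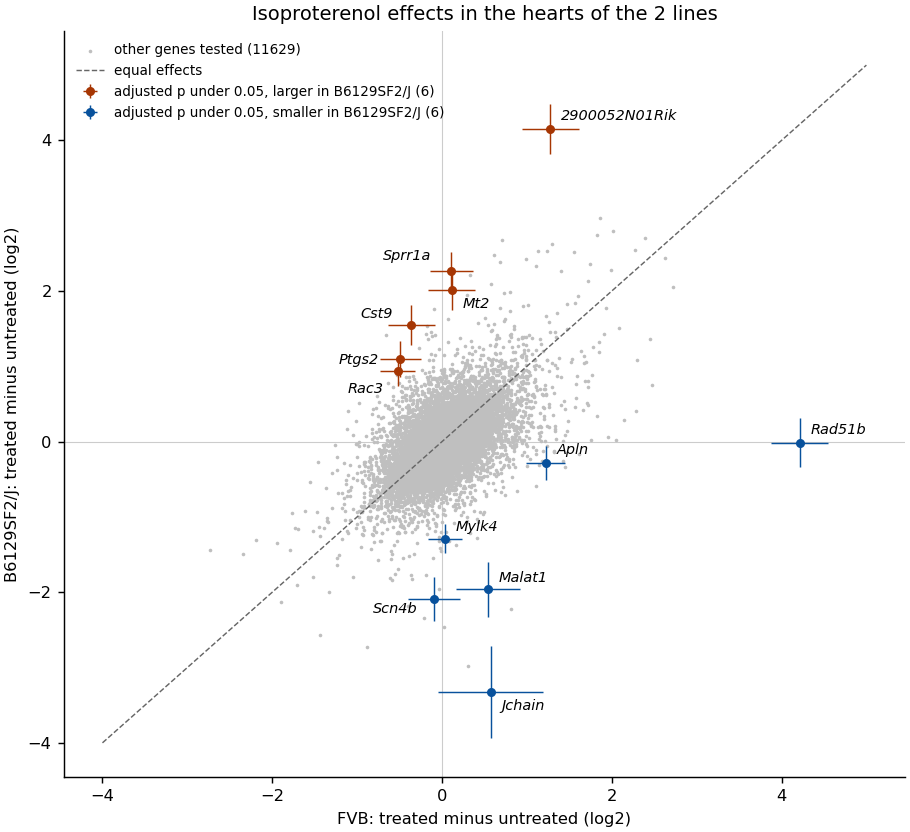
Isoproterenol effect (treated minus untreated, log2) in FVB hearts on the x axis and in B6129SF2/J hearts on the y axis for each gene tested; bars on the 12 named genes are ± SE and the dashed line marks equal effects. The effects of the 2 lines had a Pearson r of 0.56 over the genes tested. Rad51b lies far to the right near 0 on the y axis, and 2900052N01Rik lies highest.

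The count of 12 depended on scaling and on single arrays. It was 61 (38 higher, 23 lower) with quantile normalization, 66 (38 higher, 28 lower) with each array centred on its genes tested, and 290 (200 higher, 90 lower) with a weight for each array. All 12 genes were among the calls of each of these 3 settings. Leaving out untreated FVB replicate 6 gave 29 genes, untreated FVB replicate 10 gave 19, and untreated B6129SF2/J replicate 3 gave 19. With the treated FVB array of doubtful strain kept, 8 genes passed. With all 8 groups in 1 fit 3 genes passed, among them Rad51b and 2900052N01Rik of the 12. Without 3 arrays of the other lines that stand apart (C57BL/6 untreated replicate 11, B2KO untreated replicate 8 and B2KO treated replicate 10) that fit called 18 genes, all of the 12 but Malat1 and Ptgs2 among them. With weights for each line Jchain, Mylk4, Ptgs2 and Scn4b did not pass (adjusted p from 0.0804 to 0.161), and with a trended, robust variance Jchain, Malat1 and Ptgs2 did not (0.0637 to 0.0864).

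Sprr1a, 2900052N01Rik and Cst9 started from similar levels in the 2 lines and rose in B6129SF2/J hearts. Sprr1a encodes a small proline-rich protein of cornified envelopes that stressed cardiac muscle cells also make. Its lowest, median and highest values in B6129SF2/J were -2.03, -0.99 and 0.08 untreated and 0.09, 1.5 and 2.45 treated. In FVB they were -1.05, -0.53 and 0.60 untreated and -0.91, -0.37 and 1.41 treated. All 12 treated B6129SF2/J hearts lay above every untreated one, though only just at the boundary, while the FVB groups overlapped almost completely. The B6129SF2/J effect was 2.27 ± 0.25 (SE), the FVB effect 0.11 ± 0.25 and the difference 2.16 ± 0.36 (adjusted p = 0.000909), or 1.33 with values below the array median set to it (0.0096).

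2900052N01Rik, a transcript known only by its clone name, had the largest rise of the 12 in B6129SF2/J. It was at -2.42, -1.57 and -0.73 (lowest, median, highest) in untreated B6129SF2/J hearts and at -0.77, 2.78 and 4.18 in treated ones. The lowest treated heart, replicate 2, was at an untreated level and the other 11 lay above every untreated heart. In FVB the values were -2.17, -1.55 and -0.64 untreated and -1.51, -0.20 and 1.01 treated, so that a smaller rise was present there as well. The effects were 4.15 ± 0.33 and 1.28 ± 0.34, both past the threshold, and the difference was 2.88 ± 0.48 (adjusted p = 0.000909). Of its other 2 probe sets, 1 gave a difference of 1.76 ± 0.37 and the other, whose group means all lay below the array median, 0.13 ± 0.33. The mean of the probe sets gave 1.59 (adjusted p = 0.0059).

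Cst9, a member of the cystatin family of cysteine protease inhibitors, stayed dim throughout. Its values in B6129SF2/J were -2.36, -1.40 and -0.56 untreated and -1.0, 0.13 and 1.22 treated. In FVB they were -2.52, -1.91 and -0.16 untreated and -3.16, -2.17 and -0.89 treated. Of the 4 groups, the treated B6129SF2/J hearts were the one with values above the array median, in 6 of 12 hearts. The difference was 1.91 ± 0.39 (adjusted p = 0.0205), and it was 0.34 (adjusted p = 0.565) once all values below the array median were set to it. It also missed the threshold without the 3 arrays of doubtful RNA (adjusted p = 0.0551). Cst9, Sprr1a and 2900052N01Rik had a group mean above the array median only in treated B6129SF2/J hearts. They were tested through that group, which favours a positive estimate.

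**Figure D2:**
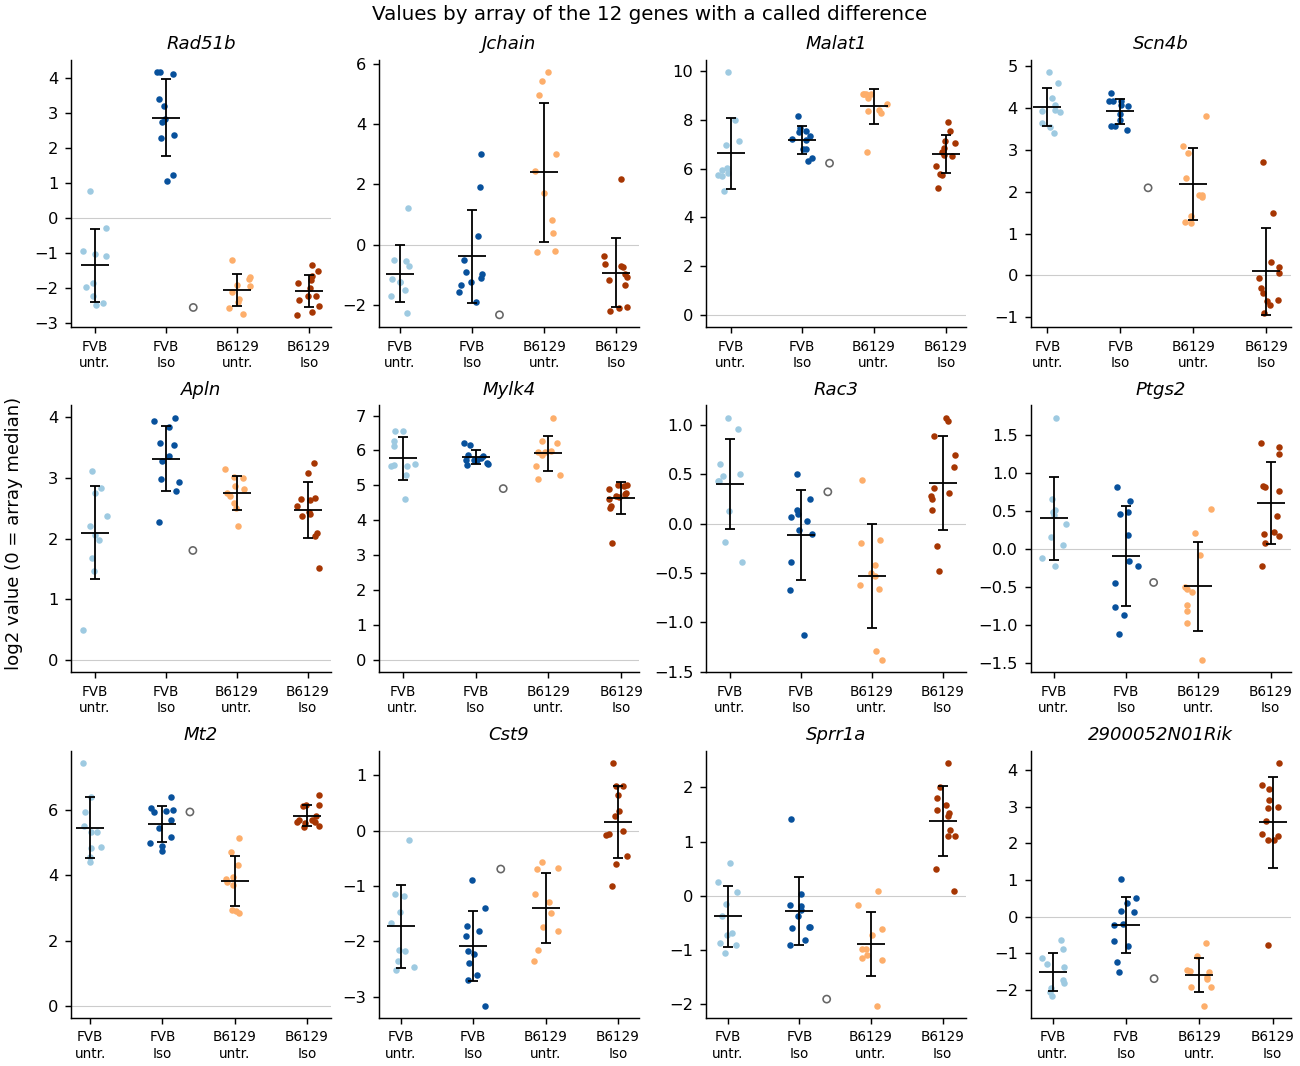
Log2 value (0 is the array median) on each array for the 12 genes with a called difference, in untreated (untr.) and isoproterenol-treated (Iso) FVB and B6129SF2/J hearts; black lines are means ± SD and the open circle is the treated FVB array left out. Rad51b is high only in treated FVB, Sprr1a, Cst9 and 2900052N01Rik are highest in treated B6129SF2/J, and Mt2 is low only in untreated B6129SF2/J.

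Mt2, Ptgs2 and Rac3 were lower in untreated B6129SF2/J hearts than in untreated FVB hearts, and rose in B6129SF2/J to or past the FVB level. Mt2 encodes metallothionein 2, a small metal-binding protein induced by zinc, glucocorticoids and oxidative stress. In B6129SF2/J hearts its lowest, median and highest values were 2.85, 3.84 and 5.14 untreated and 5.49, 5.70 and 6.46 treated. In FVB hearts they were 4.42, 5.34 and 7.45 untreated and 4.76, 5.70 and 6.41 treated. The 2 B6129SF2/J groups did not overlap, and the treated groups of the 2 lines lay over each other. The untreated lines differed by -1.65 ± 0.28 and the treated lines by 0.26 ± 0.26. The B6129SF2/J effect was 2.02 ± 0.27, the FVB effect 0.11 ± 0.28 and the difference 1.91 ± 0.39 (adjusted p = 0.0205).

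The promoter of Mt2 is printed because metal response elements are its best-known control sites. The window is the 250 bases before the gene start in RefSeq on GRCm38.p6, chr8:94172368-94172617, plus strand, 5′ to 3′. Capitals mark matches on either strand to the core TGCACNC or TGCGCNC of the metal response element. There were 3 matches, a number that 1.46% of the 27025 genes with such a window reach, while 23.8% have at least 1.
Mt2: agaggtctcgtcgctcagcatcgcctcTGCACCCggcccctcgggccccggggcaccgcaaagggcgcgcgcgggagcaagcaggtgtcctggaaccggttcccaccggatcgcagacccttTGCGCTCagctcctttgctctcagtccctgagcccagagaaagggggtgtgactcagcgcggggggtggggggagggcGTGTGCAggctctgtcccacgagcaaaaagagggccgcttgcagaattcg
These arrays do not measure binding to those sites.

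Ptgs2, which encodes the inducible cyclooxygenase of prostaglandin synthesis, rose in B6129SF2/J, while its FVB estimate was negative and did not pass. Its values in B6129SF2/J were -1.46, -0.55 and 0.52 untreated and -0.22, 0.60 and 1.39 treated. In FVB they were -0.22, 0.39 and 1.73 untreated and -1.11, -0.16 and 0.82 treated. The groups overlapped in both lines. The effects were 1.10 ± 0.24 in B6129SF2/J and -0.49 ± 0.24 in FVB (adjusted p = 0.235), and the difference was 1.59 ± 0.34 (adjusted p = 0.0290). The call was lost when any 1 of 6 arrays was left out, with an adjusted p of up to 0.0639: replicate 5 of untreated and of treated FVB, replicates 4 and 6 of untreated B6129SF2/J, and replicates 6 and 8 of treated B6129SF2/J. It was also lost without the 3 arrays of doubtful RNA (0.0551), and with dim values set to the array median the difference was 0.75 (0.282). A dimmer second probe set of Ptgs2 gave 0.70 ± 0.35.

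Rac3, a small GTPase, had the same crossing pattern near the array median. Its median was -0.51 untreated and 0.33 treated in B6129SF2/J, against 0.46 untreated and 0.02 treated in FVB. The ranges overlapped in both lines, from -1.38 to 0.44 and -0.48 to 1.07 in B6129SF2/J and from -0.39 to 1.07 and -1.13 to 0.50 in FVB. The B6129SF2/J effect was 0.94 ± 0.20, the FVB effect -0.52 ± 0.21 (adjusted p = 0.119) and the difference 1.46 ± 0.29 (adjusted p = 0.0205), or 0.79 with dim values set to the array median (0.0822).

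Glucocorticoid-responsive genes, the list that holds Mt2, mostly had a higher estimate in B6129SF2/J. Of 15 members tested, 1 passed in the difference and 14 had a positive estimate, with a median of 0.49 against -0.05 over all genes, of which 4988 of 11641 were positive. In B6129SF2/J hearts 5 members rose and 3 fell, where 5.86% and 6.72% of all genes did, and 3 rose without the 3 arrays of doubtful RNA. In FVB none rose and 3 fell, where 4.42% and 2.85% of all genes did. Mt1, the neighbouring metallothionein gene, rose by 0.84 in B6129SF2/J and had an FVB estimate of -0.10 (difference 0.94 ± 0.33, adjusted p = 0.333). Sgk1, a kinase that controls ion transport, rose by 0.99 in B6129SF2/J, with 0.28 in FVB (difference 0.71 ± 0.34). Klf15, a metabolic transcription factor, fell by 0.90 in FVB and by 0.59 in B6129SF2/J.

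Of 12 genes downstream of cyclic AMP and CREB some were called in B6129SF2/J hearts, but the difference itself passed in none. In B6129SF2/J 5 rose and 1 fell, where 5.86% and 6.72% of all genes did. In FVB none was called, where 4.42% and 2.85% of all genes rose and fell. With 12 members a count of 0 is near those shares. The median FVB effect was 0.29, and 2 members rose without untreated FVB replicates 1 and 2. The median difference was 0.48, with 9 positive and 3 negative estimates. Nr4a3, an orphan nuclear receptor gene induced by cyclic AMP, was at -1.94, -0.27 and 2.47 in untreated and 0.76, 2.45 and 3.33 in treated B6129SF2/J hearts. In FVB hearts it was at -1.09, 1.52 and 2.45 untreated and 1.17, 2.04 and 3.49 treated. The treated groups lay over each other, and the untreated B6129SF2/J hearts were the low group. Its effects were 2.68 ± 0.38 and 0.71 ± 0.39, and the difference 1.97 ± 0.55 had an adjusted p of 0.142. The gene has 3 probe sets, and the difference was seen in the brightest only. Another, with a highest group mean of 0.45, gave -0.06 ± 0.46, and a dimmer one gave -0.16 ± 0.33. Over the other settings tried the lowest estimate was 0.58. Crem, which encodes cyclic AMP-responsive activators and repressors, rose by 1.23 in B6129SF2/J, with 0.48 in FVB. Ppargc1a, a coactivator of mitochondrial genes, fell by 1.0 in B6129SF2/J, with 0.30 in FVB (difference -1.29 ± 0.38, adjusted p = 0.177).

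Rad51b and Apln rose in FVB hearts and not measurably in B6129SF2/J hearts. Rad51b, a gene of DNA repair, had the smallest p of all genes tested. Its lowest, median and highest values in FVB were -2.48, -1.47 and 0.77 untreated and 1.05, 2.82 and 4.16 treated. In B6129SF2/J they were -2.75, -2.02 and -1.20 untreated and -2.76, -2.11 and -1.33 treated. The FVB groups did not overlap, and every treated FVB heart lay above all 22 B6129SF2/J hearts. Rad51b had a group mean above the array median only in treated FVB hearts. It was tested through that group, which favours a negative estimate. The FVB effect was 4.21 ± 0.33, the B6129SF2/J effect -0.01 ± 0.33 and the difference -4.23 ± 0.47 (adjusted p = 6.96e-08). The treated FVB array left out read -2.55, and with it kept the difference was -3.78 (adjusted p = 0.00145). The call rests on 1 of 2 probe sets of the gene: the other, with all group means below the array median, gave 0.31 ± 0.39. The mean of both gave -1.96 (adjusted p = 0.00113), and values below the array median set to it gave -2.78.

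Apln encodes apelin, the peptide ligand of a receptor on endothelial and cardiac muscle cells. In FVB hearts it was at 0.49, 2.14 and 3.12 untreated and at 2.28, 3.37 and 3.99 treated. In B6129SF2/J hearts it was at 2.20, 2.78 and 3.15 untreated and at 1.52, 2.49 and 3.24 treated. In FVB 7 of 11 treated hearts lay above every untreated heart, while the B6129SF2/J groups overlapped. The effects were 1.22 ± 0.23 and -0.28 ± 0.22 (adjusted p = 0.443), and the difference was -1.51 ± 0.32 (adjusted p = 0.0285). With the treated FVB array of doubtful strain kept it was -1.38 (adjusted p = 0.0885).

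Scn4b and Mylk4, a pair of muscle genes, fell in B6129SF2/J hearts and had FVB estimates near 0. Scn4b encodes the beta-4 subunit of voltage-gated sodium channels. In B6129SF2/J it was at 1.26, 1.92 and 3.82 untreated and at -0.90, -0.19 and 2.70 treated. In FVB it was at 3.39, 3.95 and 4.86 untreated and at 3.48, 4.05 and 4.36 treated. The lines were thus already apart when untreated, by -1.83 ± 0.31, and the gap was -3.83 ± 0.29 when treated. Of the 12 treated B6129SF2/J hearts, 10 lay below every untreated one, and replicates 11 (1.48) and 12 (2.70) did not. The effects were -2.09 ± 0.30 and -0.09 ± 0.30, and the difference was -2.0 ± 0.42 (adjusted p = 0.0285). The adjusted p was 0.0772 with the treated FVB array of doubtful strain kept and 0.0502 without treated FVB replicate 5.

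Mylk4 encodes a myosin light chain kinase family member of heart and skeletal muscle. Its values in B6129SF2/J were 5.20, 5.96 and 6.94 untreated and 3.36, 4.73 and 5.03 treated, with no overlap. In FVB they were 4.61, 5.61 and 6.56 untreated and 5.58, 5.74 and 6.22 treated. The effects were -1.29 ± 0.20 and 0.03 ± 0.20, and the difference was -1.32 ± 0.28 (adjusted p = 0.0285). The adjusted p was 0.0686 with the doubtful treated FVB array kept, 0.0559 without untreated FVB replicate 5 and 0.0526 without treated FVB replicate 5.

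Among 13 potassium and sodium channel genes Scn4b was the one called in the difference, and the list median was -0.21. In B6129SF2/J 3 members fell, where 6.72% of all genes did. Among them was Kcnip2, the accessory subunit of the transient outward potassium current (-0.59, with -0.07 in FVB). None of the 13 was called in FVB, where 4.42% of all genes rose and 2.85% fell. The lists of contractile genes (17 tested) and calcium-cycling genes (15) had no called difference and medians of -0.20 and -0.19, which were 0.00 and -0.04 with quantile normalization.

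Malat1 and Jchain stood high in untreated B6129SF2/J hearts and fell there to the FVB level. Malat1 is an abundant nuclear noncoding RNA. In B6129SF2/J it was at 6.68, 8.80 and 9.09 untreated and at 5.20, 6.64 and 7.93 treated. In FVB it was at 5.07, 6.00 and 9.97 untreated and at 6.32, 7.22 and 8.18 treated. The highest untreated FVB value, 9.97, came from replicate 10, an array of doubtful RNA, and the lowest untreated B6129SF2/J value from replicate 3. The effects were -1.96 ± 0.37 and 0.54 ± 0.38 (adjusted p = 0.433), and the difference was -2.50 ± 0.53 (adjusted p = 0.0285). It was -2.81 (adjusted p = 0.000553) without the 3 arrays of doubtful RNA and -2.33 (0.0516) without untreated FVB replicate 9. All 7 probe sets of Malat1 gave a negative difference, from -2.58 to -0.70.

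Jchain encodes the chain that joins IgM and IgA units and marks antibody-secreting cells. In untreated B6129SF2/J hearts it was at -0.23, 2.07 and 5.71, and in treated ones at -2.18, -1.01 and 2.17. In FVB it was at -2.26, -1.18 and 1.23 untreated and at -1.88, -0.98 and 3.00 treated. The untreated B6129SF2/J group had the widest spread of the 4, with replicates 2, 4 and 10 at 4.97, 5.71 and 5.43. The effects were -3.32 ± 0.61 and 0.57 ± 0.62, and the difference was -3.90 ± 0.87 (adjusted p = 0.0416). This was the least stable call: with each array left out in turn it passed in 21 of 43 fits (adjusted p from 0.0171 to 0.0915), and it missed without the 3 arrays of doubtful RNA (0.0551) and with the doubtful treated FVB array kept (0.0686). With dim values set to the array median it was -2.62 (0.119).

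Ighm, the heavy chain of IgM, was high with Jchain, at 7.22, 7.73 and 7.94 in the same 3 untreated B6129SF2/J hearts, with a difference of -2.48 ± 0.74 (adjusted p = 0.183). Of its 11 probe sets another gave -4.99 ± 1.19, and the rest lay between -0.69 and 0.08. Over the other settings tried the Ighm estimate ran from -2.48 to -0.92. All 8 lymphocyte and immunoglobulin genes tested had a negative estimate (median -0.69), and Jchain was the one that passed. The list has 14 genes on the array, and the rest were too dim to test. Genes such as Jchain, with a group mean above the array median only in untreated B6129SF2/J hearts, were tested through that group. This favours a negative estimate, so the shared sign is no separate support. In B6129SF2/J 4 of the 8 fell, where 6.72% of all genes did. None was called in FVB, where 4.42% of all genes rose and 2.85% fell. With 8 members a count of 0 is near those shares. In bulk tissue, fewer cells of a type and less RNA per cell cannot be told apart. The summed level of the list ran from 3.90 to 8.27 in untreated and 2.96 to 5.16 in treated B6129SF2/J hearts, and from 3.33 to 4.85 and 3.24 to 7.44 in FVB. Markers of lung epithelium were also uneven: Scgb1a1, the club-cell secretory protein, reached 7.38, 8.90 and 5.64 in untreated B6129SF2/J replicates 1, 6 and 10 and 4.84 in treated FVB replicate 3, against a median of -0.56 and -1.37 in those groups. Of 11 lung genes 7 stayed below the array median in every group mean, and the summed level reached 9.14 in untreated B6129SF2/J against at most 3.06 in treated. The part of adjoining tissue in the immunoglobulin values was not tested.

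The genes next in order of p did not pass. The first of them was 2210407C18Rik, a clone without a gene name (2.07 ± 0.47, adjusted p = 0.0520), with effects of 1.42 in B6129SF2/J and -0.66 in FVB. Among genes with a name, those on the higher side were Angptl7, a secreted angiopoietin-like protein (1.59 ± 0.37, adjusted p = 0.0569), Lrrc52, Nox4, Trps1, Fcgr1, Ifrd1 and Wdfy1, with adjusted p from 0.0820 to 0.0943. Nox4, an NADPH oxidase that makes hydrogen peroxide, was at -1.30, -0.65 and 0.19 in untreated and 0.59, 1.49 and 2.50 in treated B6129SF2/J hearts, which did not overlap. In FVB it was at -0.35, 0.38 and 1.23 untreated and -0.22, 0.94 and 2.07 treated, and the difference was 1.52 ± 0.37. Fcgr1, the high-affinity IgG receptor of macrophages, had effects of 1.63 ± 0.27 in B6129SF2/J and 0.07 ± 0.27 in FVB. Its dimmer second probe set gave effects of 0.67 and 0.52 and a difference of 0.15 ± 0.40. On the lower side were Cacna1s, the calcium channel subunit of skeletal muscle (-1.16 ± 0.27, adjusted p = 0.0543), Rtn4rl1 (0.0598), Rnf24 (0.0658), Zfp341 (0.0867), Ncam1 (0.0943) and Aspm (0.0976). Ncam1, a cell adhesion molecule, rose by 0.78 ± 0.19 in FVB and had an effect of -0.31 ± 0.19 in B6129SF2/J. Of its 7 probe sets, the next brightest gave a difference of -0.14 ± 0.26. A dim one gave -0.73 ± 0.33, and the rest lay between -0.20 and 0.21. Aspm, a protein of the mitotic spindle, rose by 1.43 ± 0.30 in FVB, with -0.26 ± 0.30 in B6129SF2/J. Of its 5 probe sets the others had all group means below the array median. They gave FVB effects from -0.01 to 0.38 and differences from -0.56 to 0.38. Over the other settings tried the Aspm estimate ran from -1.84 to -0.49. Angptl7 and Lrrc52 were tested through treated B6129SF2/J hearts alone, Zfp341 through untreated B6129SF2/J hearts and Aspm through treated FVB hearts. This favours the sign of their estimates.

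Many cell-cycle genes rose in FVB hearts and few in B6129SF2/J hearts. Of 23 tested, 16 rose in FVB, where 4.42% of all genes did, and 2 (Prc1 and Ccna2) rose in B6129SF2/J, where 5.86% did. No member passed in the difference. All 23 estimates were negative, against 6653 of the 11641 genes tested, with a median of -0.90, and 11 had an unadjusted p under 0.05, where 5.27% of all genes were lower at that level. The list has 28 genes on the array, and the rest were too dim to test. A gene above the array median only in treated FVB hearts was tested through that group, which favours a negative estimate. The sign shared by all members is thus no separate support. Mki67, the proliferation antigen Ki-67, was at -0.60, 0.59 and 2.15 in untreated and 1.42, 2.65 and 4.57 in treated FVB hearts. In B6129SF2/J it was at -0.10, 0.62 and 1.65 untreated and -0.02, 0.96 and 2.15 treated. Of the treated hearts, 9 of 11 in FVB and 4 of 12 in B6129SF2/J lay above every untreated heart of their line. The effects were 2.14 ± 0.36 and 0.28 ± 0.35, and the difference was -1.86 ± 0.51 (adjusted p = 0.140). Top2a, the DNA topoisomerase of dividing cells, had effects of 2.48 ± 0.37 and 0.75 ± 0.36 and a difference of -1.72 ± 0.51 (adjusted p = 0.183). Of its 3 probe sets the others, with all group means below the array median, gave -0.31 ± 0.38 and 0.21 ± 0.29. Over the other settings tried the Top2a estimate ran from -2.05 to -0.61. Cdk1, the kinase that drives entry into mitosis, rose by 1.77 in FVB, with 0.88 in B6129SF2/J (difference -0.89 ± 0.49).

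Erythroid genes moved in the same way. All 3 tested, of 5 on the array, rose in FVB, where 4.42% of all genes did. In B6129SF2/J, where 5.86% of all genes rose, 1 did, the mitochondrial iron importer gene Slc25a37 (none without the 3 arrays of doubtful RNA). Alas2, the erythroid enzyme that starts heme synthesis, was at 2.56, 4.41 and 6.77 in untreated and 5.87, 6.85 and 8.11 in treated FVB hearts. In B6129SF2/J it was at 4.30, 5.26 and 6.07 untreated and 4.37, 5.41 and 7.32 treated, and the difference was -1.88 ± 0.51 (adjusted p = 0.140). The summed level of the erythroid list ran from 4.33 to 7.5 in untreated and 6.79 to 8.95 in treated FVB hearts, and from 5.14 to 6.64 and 5.54 to 8.63 in B6129SF2/J. The 3 untreated FVB hearts with the highest Alas2, replicates 6, 7 and 9 (6.77, 6.62 and 5.41), also had the highest Mki67 of their group (2.15, 2.0 and 2.01). The part of blood or of erythroid cells in the cell-cycle values was not tested. Kept in, the doubtful treated FVB array brought the cell-cycle count in FVB to 11, and without untreated FVB replicates 1 and 2, which have the lowest upper-quartile intensities of the 43 arrays, it was 13.

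The promoters of Mki67, Top2a and Cdk1 are printed because genes of late cell cycle share 2 short elements there. Each is the 250 bases before the gene start in RefSeq on GRCm38.p6, 5′ to 3′ on the minus strand: chr7:135716380-135716629 for Mki67, chr11:99024190-99024439 for Top2a and chr10:69352913-69353162 for Cdk1. Capitals mark TTTGAA on either strand, the cell-cycle homology region of the promoter.
Mki67: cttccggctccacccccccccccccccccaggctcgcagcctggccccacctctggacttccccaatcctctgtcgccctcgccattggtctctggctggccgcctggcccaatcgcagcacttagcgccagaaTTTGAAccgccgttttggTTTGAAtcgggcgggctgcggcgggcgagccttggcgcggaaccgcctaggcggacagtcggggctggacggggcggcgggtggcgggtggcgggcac
Top2a: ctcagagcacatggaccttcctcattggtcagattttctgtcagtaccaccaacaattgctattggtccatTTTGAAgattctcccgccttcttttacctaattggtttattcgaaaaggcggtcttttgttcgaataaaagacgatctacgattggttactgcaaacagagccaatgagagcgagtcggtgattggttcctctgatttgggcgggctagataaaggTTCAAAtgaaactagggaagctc
Cdk1: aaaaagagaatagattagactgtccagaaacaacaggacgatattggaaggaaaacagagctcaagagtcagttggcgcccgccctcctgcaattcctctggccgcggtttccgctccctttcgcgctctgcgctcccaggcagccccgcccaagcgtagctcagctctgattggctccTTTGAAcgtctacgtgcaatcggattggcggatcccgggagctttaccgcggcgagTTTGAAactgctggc
Each of the 3 holds 2 such matches, and 2.1% of all genes hold at least 2. They also hold 3, 6 and 3 matches in turn to CCAAT, the box bound by the factor NF-Y. Over the 20 cell-cycle genes with a window, 10 held TTTGAA and 17 held CCAAT, against 18.3% and 37.5% of 27025 genes. The 2 motifs do not overlap in letters, and a match is no measured binding.

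**Figure D3:**
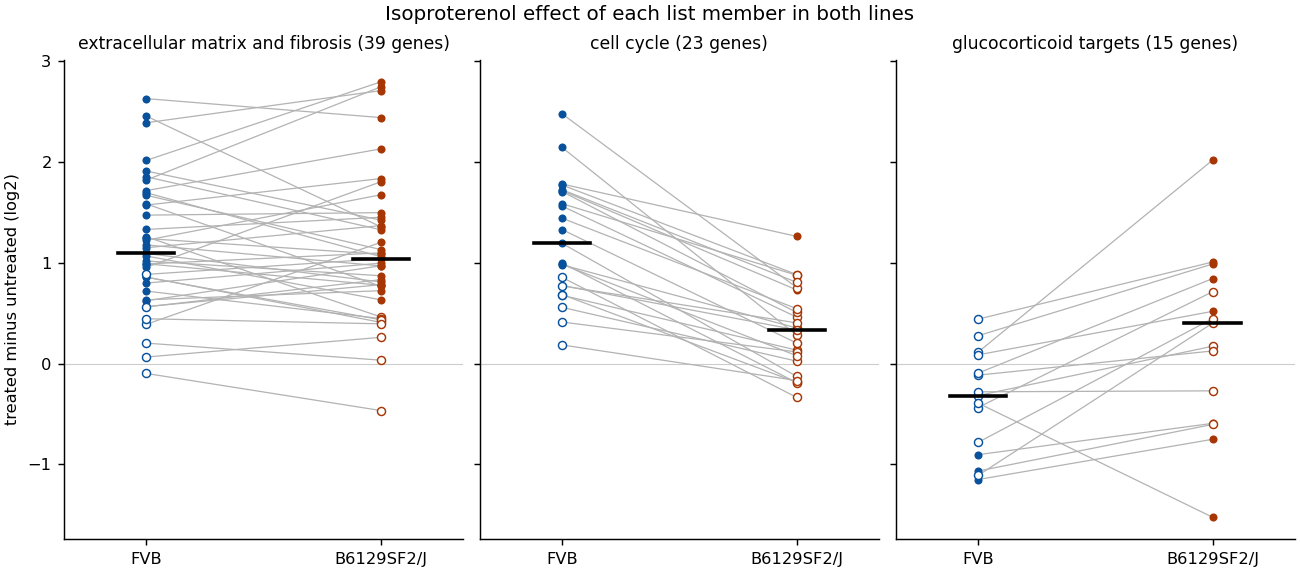
Isoproterenol effect (treated minus untreated, log2) of each member of 3 gene lists in FVB and B6129SF2/J hearts, with a grey line for each gene; filled circles passed the threshold in that line and black bars are medians. Matrix genes sit at like levels in both lines (medians 1.09 and 1.04), cell-cycle genes are lower in B6129SF2/J (1.19 and 0.33) and most glucocorticoid-responsive genes are higher there (-0.32 and 0.40).

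Fibrosis genes rose in both lines. Of 39 extracellular matrix genes, 32 rose in FVB and 31 in B6129SF2/J, where 4.42% and 5.86% of all genes rose, and none fell. The median effects were 1.09 and 1.04 and the median difference was -0.05. None passed in the difference, and 1 positive and 3 negative estimates had an unadjusted p under 0.05. Postn, the matrix protein of activated fibroblasts, was at 5.02, 5.74 and 6.47 in untreated and 7.93, 8.37 and 8.78 in treated FVB hearts. In B6129SF2/J it was at 5.23, 5.77 and 6.37 untreated and 7.28, 8.12 and 9.58 treated. Neither line's groups overlapped, and the difference was -0.19 ± 0.31. Tnc, tenascin C of injured tissue, and Timp1, an inhibitor of matrix metalloproteinases, rose in both lines, with differences of 0.78 ± 0.45 and 0.92 ± 0.48. Sfrp2, a secreted Wnt antagonist, had the lowest p of the list (-1.10 ± 0.42, adjusted p = 0.389). Cilp, a matrix protein that binds growth factors, rose by 2.39 ± 0.32 and 2.71 ± 0.31 from untreated levels that were 1.76 ± 0.33 higher in B6129SF2/J. Basement membrane genes had 7 of 15 members up in FVB and 3 in B6129SF2/J, where 4.42% and 5.86% of all genes rose. Their median difference was -0.30, and none was called in the difference. A miss of the threshold with SEs of this size does not show that the lines respond alike.

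No inflammatory gene of the 4 lists below passed in the difference, and in each line most members of each list were not called. Of 16 cytokines and chemokines, 7 rose in B6129SF2/J, where 5.86% of all genes did, while 5 rose and 1 fell in FVB, where 4.42% and 2.85% of all genes did. Ccl2, which draws monocytes, rose by 1.47 in B6129SF2/J, with 0.57 in FVB (difference 0.89 ± 0.38). Ccl11, eotaxin, fell by 1.24 in FVB, with -0.20 in B6129SF2/J (difference 1.03 ± 0.42). Cxcl12, the ligand of CXCR4, rose by 0.93 in FVB, with 0.20 in B6129SF2/J (difference -0.73 ± 0.22, adjusted p = 0.183). All 12 acute-phase and complement genes had a positive estimate, as 4988 of the 11641 genes tested did. Their median was 0.32, against -0.05 over all genes. Of the 12, 4 rose in B6129SF2/J and 2 in FVB, where 5.86% and 4.42% of all genes rose. Serpina3n, a serine protease inhibitor of inflammation, rose by 2.42 in B6129SF2/J, with 0.99 in FVB (difference 1.44 ± 0.51, adjusted p = 0.344). Of 11 neutrophil and mast cell genes on the array 7 were tested. In B6129SF2/J 3 of these rose, S100a8, S100a9 and Csf3r, where 5.86% of all genes rose. None of the 7 was called in FVB, where 4.42% of all genes rose, and the median difference was 0.69. Macrophage markers had 4 of 19 up in FVB and 5 in B6129SF2/J, where 4.42% and 5.86% of all genes rose. Their median difference was 0.01.

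**Figure D4:**
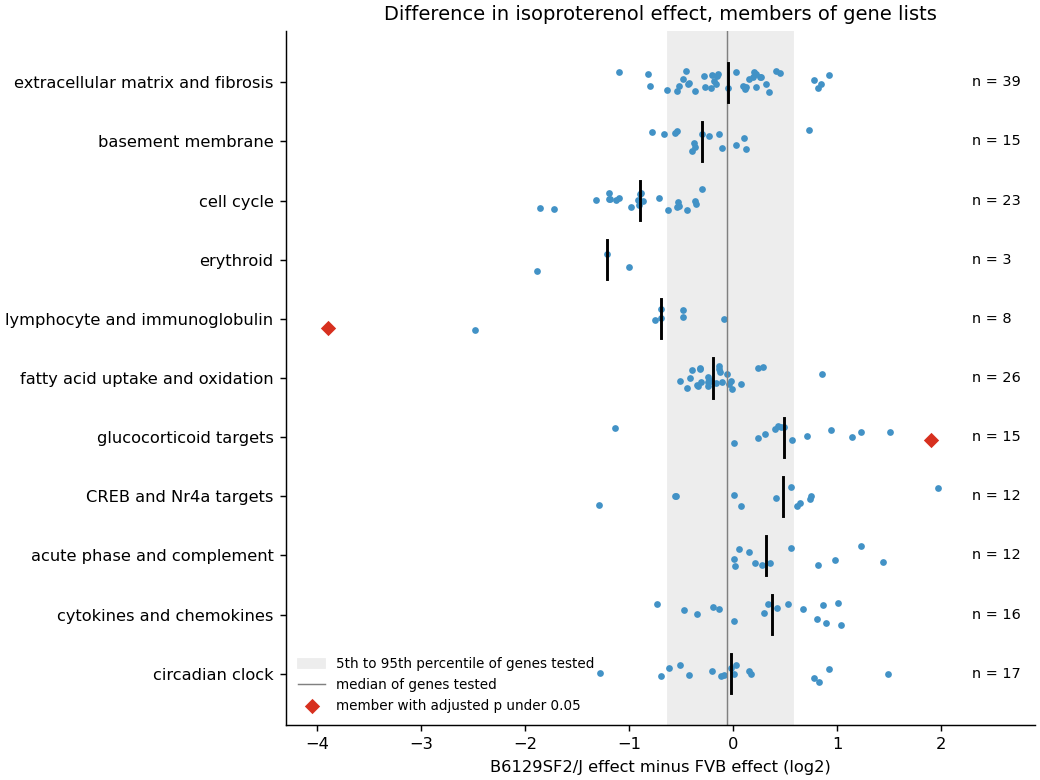
Difference in isoproterenol effect (B6129SF2/J minus FVB, log2) for each member tested of 11 gene lists; black bars are list medians, the grey line is the median of all genes tested and the shading their 5th to 95th percentile. All 23 cell-cycle genes lie below 0, 14 of 15 glucocorticoid-responsive genes lie above it, and matrix genes centre on it.

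None of the metabolic, natriuretic, myosin or heat shock genes below passed in the difference. Of 26 fatty acid uptake and oxidation genes, 9 fell in FVB and 16 in B6129SF2/J, where 2.85% and 6.72% of all genes fell. Their median difference of -0.19 was -0.02 with quantile normalization. Gnb3, a G protein beta subunit, fell by 1.90 ± 0.21 in FVB and by 2.13 ± 0.21 in B6129SF2/J. Acot1, an acyl-CoA thioesterase, fell by 2.34 ± 0.25 in FVB and by 1.49 ± 0.25 in B6129SF2/J (difference 0.85 ± 0.35, adjusted p = 0.439). Of 25 oxidative phosphorylation genes none fell in FVB and 3 fell in B6129SF2/J, where 2.85% and 6.72% of all genes did. None rose in either line, and counts this small do not set the lines apart. The median difference of this list, -0.23, was likewise -0.02 with quantile normalization. Nppa, the atrial natriuretic peptide gene, had effects of 0.29 ± 0.16 and 0.23 ± 0.16, neither past the threshold. Nppb, its B-type counterpart, had 0.31 ± 0.28 and -0.39 ± 0.27. Myh7, the slow myosin heavy chain, fell by 1.16 ± 0.37 in FVB, with -0.83 ± 0.36 in B6129SF2/J (adjusted p = 0.126). Of 18 heat shock genes 5 rose in B6129SF2/J, where 5.86% of all genes did. Among them was Hspa1a, at -1.08, -0.06 and 1.07 untreated and 0.59, 2.57 and 4.64 treated. In FVB it was at -0.03, 3.46 and 5.57 untreated and 0.58, 5.01 and 7.74 treated, and the groups overlapped. Its effects were 2.54 ± 0.65 in B6129SF2/J and 1.23 ± 0.66 in FVB (adjusted p = 0.282), and the difference was 1.31 ± 0.93 (adjusted p = 0.771). In each line 1 heat shock gene fell, where 2.85% of all genes fell in FVB and 6.72% in B6129SF2/J. No heat shock gene rose in FVB, where 4.42% of all genes did.

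None of the clock genes passed in the difference. Per2, a repressor of the clock, fell by 0.97 in FVB and had an effect of 0.52 in B6129SF2/J (difference 1.49 ± 0.43, adjusted p = 0.177). Nr1d1, the nuclear receptor REV-ERB alpha, fell by 1.31 in B6129SF2/J, with -0.04 in FVB (difference -1.28 ± 0.41, adjusted p = 0.238). Over 17 clock genes the median difference was -0.02, with 8 positive and 9 negative estimates. At an unadjusted p under 0.05, 4 were higher and 2 lower, where 3.51% and 5.27% of all genes were. In each line 2 rose and 5 fell past the threshold. The shares of all genes that rose and fell were 4.42% and 2.85% in FVB and 5.86% and 6.72% in B6129SF2/J.

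The arrays of C57BL/6 and B2KO mice did not enter the difference, and their treated minus untreated effects are given without a test. The wild-type genotype stated above is that of FVB and B6129SF2/J. The sample titles give B2KO by that name only, which reads as a knockout line, so genotype as well as strain may differ there. In these lines 3 arrays stand apart: C57BL/6 untreated replicate 11 and B2KO untreated replicate 8 had a 3′ Gapdh control 7.43 and 7.31 log2 units above the 5′ control, and B2KO treated replicate 10 correlated with the other arrays at a median r of 0.57. Sprr1a had an effect of 2.24 ± 0.36 in C57BL/6, near the B6129SF2/J value, and of 0.67 ± 0.37 in B2KO. 2900052N01Rik had an effect of 2.35 ± 0.34 and 1.65 ± 0.35, between the values of the 2 lines. Rad51b had an effect of 0.17 ± 0.47 in C57BL/6 and of 1.86 ± 0.48 in B2KO. Malat1 had an effect of 2.18 ± 0.55 in C57BL/6, away from both lines, and of -0.45 ± 0.56 in B2KO. Mylk4 had an effect of -0.67 ± 0.27 in C57BL/6 and of -1.37 ± 0.27 in B2KO. Without the 3 arrays the C57BL/6 and B2KO effects were 2.21 and 0.78 for Sprr1a, 2.35 and 1.77 for 2900052N01Rik, and 0.23 and 2.10 for Rad51b. They were 2.02 and -0.17 for Malat1 and -0.48 and -0.95 for Mylk4. The C57BL/6 effect was nearer to that of B6129SF2/J than to that of FVB in 6 of the 12 genes and in 40.1% of all genes tested (5 and 39.4% without the 3 arrays). The B2KO effect was nearer to it in 4 of the 12 and in 54.1% of all genes (3 and 49.9%).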

How the data were processed

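Total RNA of mouse hearts was hybridised to Affymetrix arrays of 45101 probe sets, 1 array a sample. The authors deposited intensity values on a linear scale, made with GCRMA per the submitters' processing notes (version and annotation not given in the sources used here). In the deposited intensity values every array has a median of 1, read from the values, so any change in total signal is removed. Log2 values were taken with no pseudocount, since no value was 0 or less.

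Probe sets with 1 gene symbol (34945) gave 18193 genes, each by its probe set of highest mean over 86 arrays. Groups came from the sample titles. limma 3.58.1 in R 4.3.3 fitted the 4 group means on 43 arrays, over 11641 genes with a group mean above log2 0. The contrast was (B6129SF2/J treated - untreated) - (FVB treated - untreated), two-sided, with Benjamini-Hochberg adjustment over all genes tested and a threshold of 0.05. The number of arrays limits the precision. C57BL/6 and B2KO effects came from a fit of all 8 groups, near-identical arrays averaged.

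The comparison and the gene lists were chosen with earlier results of these data known, and the lists come from general knowledge. Named genes were up to 12 past the threshold in each direction with a gene name (then the next by p), up to 4 called members of each list and a fixed set; 2900052N01Rik, without a gene name, was added because it passed, and list members named for their effects in 1 line were chosen after their values were seen. Some fixed genes are not reported here. The fit was tested on simulated data. Promoters were read from RefSeq (GRCm38.p6).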

Additional observations from a re-analysis of the deposited data

Results flagged for a closer look

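The 12 genes in which the response differed between the lines by the test of the difference itself are marked for that reason: Rad51b (-4.23), Jchain (-3.90), Malat1 (-2.50), Scn4b (-2.0), Apln (-1.51) and Mylk4 (-1.32) were lower in B6129SF2/J, and 2900052N01Rik (2.88), Sprr1a (2.16), Cst9 (1.91), Mt2 (1.91), Ptgs2 (1.59) and Rac3 (1.46) were higher.

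In the groups of 10 arrays or fewer, 7 single values lay farther from the rest of their group than Dixon's critical value. These were 6.9% of the 102 groups of named genes tested, and chance gives about 1 in 20. Untreated B6129SF2/J replicate 7 was low in Acta1, skeletal alpha-actin (7.17), and in Gnb3, a G protein beta subunit (-0.35). Untreated FVB replicate 10 was high in Myh7 (10.32) and low in Nr4a3 (-1.09). Jchain stood at 1.23 in untreated FVB replicate 7 and Ptgs2 at 1.73 in untreated FVB replicate 5. Malat1 was low in untreated B6129SF2/J replicate 3 (6.68).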

How the results depend on the processing

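The 12 genes called in the difference became 61 with quantile normalization, 66 with arrays centred, 290 with array weights, 21 with the mean of probe sets, 3 with all 8 groups in the fit (18 without the 3 outlying arrays of C57BL/6 and B2KO, chosen after seeing the data) and 28 without untreated FVB replicates 1 and 2, an alternative chosen after seeing the data. With 1 array left out they were 8 to 29. In FVB, 847 genes became 541 with the doubtful treated array kept, 299 with all 8 groups, 1861 with quantile normalization, 1695 centred, 327 with weights for each line and 1871 with weights for each array, and 655 to 977 with 1 array left out. In B6129SF2/J, 1464 genes became 576, 2320, 2419, 2839 and 3416 under the last 5 of these settings, and 1234 to 1679 with 1 array left out. The cause of these shifts was not tested. Centring moves the median difference over all genes from -0.05 to 0.00 and quantile normalization to 0.01.

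Rad51b and 2900052N01Rik passed under all 15 settings tried. With all 8 groups in 1 fit, Sprr1a, Mt2 and Rac3 each had an adjusted p of 0.0725. The estimates of 4 genes near 0 changed sign: Gnb3 with dim values at the array median (0.0724), Myh7 with array weights (-0.0405), Postn with the doubtful array kept (0.0495) and Nppa with quantile normalization (0.12) and without treated FVB replicate 12 (0.0098, lowest -0.15 with another array left out).

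Replicate numbers do not pair the arrays: of 59 same-numbered pairs 8 had a correlation of deviations over 0.1 (range -0.20 to 0.22). With the replicate number as a random block, 11 genes passed (6 higher, 5 lower), and Jchain had an adjusted p of 0.0579. Dim genes limit precision: Cst9, Ptgs2, Rac3 and Jchain lose their calls when values under the array median are set to it.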

Other observations

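Under both scalings that bring the arrays closer together, quantile normalization and centring, 57 genes passed in the difference (35 higher and 22 lower in B6129SF2/J), the 12 of the deposited scale among them. The genes below were chosen after their values were seen, and each difference is given as deposited and then with quantile normalization. Higher in B6129SF2/J were Ifrd1, a coregulator of muscle regeneration (1.21 and 1.25), Id2, an inhibitor of helix-loop-helix factors (0.99 and 1.02), Hey1, a target of Notch (1.00 and 1.04), and Fmo2, a flavin monooxygenase (1.12 and 1.16). Lower were Casq1, the calsequestrin of skeletal muscle (-1.40 and -1.44), Fech, the last enzyme of heme synthesis (-1.01 and -0.97), Pxdn, a peroxidase of basement membranes (-0.90 and -0.82), and Tent5c, a poly(A) polymerase of secretory and erythroid cells (-1.90 and -1.88). Fech (0.63 in FVB, -0.38 in B6129SF2/J) and Tent5c (1.96 and 0.06) are outside the erythroid list. Their part in the erythroid pattern was not tested.

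Inmt, which methylates indole amines and thioethers, had an effect of -1.46 in FVB and -0.27 in B6129SF2/J. Herpud1, a gene of the endoplasmic reticulum stress response, had -0.74 and 0.15. Spint2, an inhibitor of membrane serine proteases, had 0.15 and -0.83.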
